A study of Arabidopsis thaliana with 12 samples.

Results

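SBPASE (AT3G55800) encodes sedoheptulose-bisphosphatase and PRK (AT1G32060) encodes phosphoribulokinase, the enzymes of the Calvin cycle that serve only the regeneration of ribulose bisphosphate, the acceptor of carbon dioxide. They were chosen by name as the thioredoxin-regulated enzymes of this step that have a probe with a single gene name. They are 2 of the 691 single-name genes among 3438 measured features. Of 25 Calvin cycle genes looked for by locus, these 2 were the only members with a single-name probe. RCA, Rubisco activase, was annotated only on probes with several names and was not used. Both genes were above 0 on all 12 arrays, as were 3107 of the 3438 features.

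The Calvin cycle in the chloroplast stroma fixes carbon dioxide, reduces the product with ATP and NADPH from the light reactions, and rebuilds the acceptor. Sedoheptulose-bisphosphatase removes a phosphate from sedoheptulose bisphosphate and so commits carbon to the regeneration branch. Phosphoribulokinase then phosphorylates ribulose phosphate, the last step before Rubisco. In the light, electrons pass from ferredoxin through ferredoxin-thioredoxin reductase to thioredoxins, which reduce disulfides in both enzymes and activate them. NTRC, an NADPH-dependent reductase with its own thioredoxin domain, is a further route of reduction in the stroma. Transcript levels, the only quantity measured here, say nothing of this redox control.

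The plants were wild-type Arabidopsis thaliana, ecotype Columbia 0. The ML_20C group grew in medium light at 20 °C and the ML_4C group was kept for 24 h in medium light at 4 °C, which the submitters call photoinhibitory. Each group had 6 arrays of total RNA. The labels give no organ, plant age or number of plants, and they do not say whether arrays came from separate plants. Of 16 green-tissue markers, 4 had a single-name probe (LHB1B2, PSAN, PSBW and PSBY), and all 4 were above 0 on every array. LHB1B2, an antenna protein, and PSAN, a photosystem I subunit, fell, with log2 changes of -0.83 and -1.47, and PSBW, of photosystem II, rose by 0.84. PSBY, also of photosystem II, did not pass. After median centring the sign of LHB1B2 turned and PSBY passed as higher, at 0.74 (adjusted p = 0.0152, limma over pair means). LHB1B2 passed as lower after quantile normalization, at -1.23, and cyclic loess, at -1.34 (adjusted p of 0.0033 and 0.0037, limma over pair means). PSBY, at 0.02 and -0.08, did not pass after either. PSBW no longer passed after quantile normalization, at 0.20, or cyclic loess, at 0.16 (adjusted p of 0.277 and 0.394, limma over pair means). Of the 4 root, 4 flower and 9 cold-response markers looked for, none had a single-name probe. In such bulk RNA, fewer cells of a type and less transcript per cell cannot be told apart.

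Intensities are the authors' processed values on a linear scale with arbitrary units, and the mean of each array lay between 1.02 and 1.09. The median intensity of an array was 0.276 to 0.315 in the cold, against 0.536 to 0.569 at 20 °C. A level is therefore relative to the other signals of its array, and the median log2 change over 3378 features was -0.74. Arrays with the numbers 1 and 2, 3 and 4, or 5 and 6 resembled each other more than the other arrays of their group. Their correlation across features was 0.991 to 0.994 at 20 °C, against 0.901 to 0.951 for the others, and 0.962 to 0.973 in the cold, against 0.924 to 0.952. The mean of a pair is therefore taken as 1 sample, which gives n = 3 per group. A p-value covers only how far these samples spread, and that spread may be technical. The values of arrays 1 and 2 stood apart from the other pairs for PRK, and results on it are given with and without them. A gene is said to have risen or fallen where limma over pair means gave an adjusted p under 0.05 with the intensities as deposited.

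The comparison of the groups asked how the transcripts of both enzymes differed between 4 °C and 20 °C in the same light. SBPASE fell in the cold, and its geometric mean intensity was 2.04-fold lower than at 20 °C. PRK had a lower mean in the cold, but its pairs overlapped between the groups and it did not pass the test. NTRC fell as well, while AT2G04700, the other measured gene of the thioredoxin system, did not pass. These statements hold for the intensities as deposited. After median centring neither SBPASE nor NTRC passed, and under all 3 other scalings tried the estimates for PRK and NTRC lay above 0.

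SBPASE intensities at 20 °C had a lowest value of 0.954, a median of 1.06 and a highest value of 1.13 over 6 arrays. At 4 °C the lowest was 0.448, the median 0.475 and the highest 0.691. The groups did not overlap, and arrays 1 and 2 were the highest at 4 °C. The pair means were 1.06, 1.04 and 1.07 at 20 °C, and 0.651, 0.455 and 0.470 at 4 °C. Their mean was 1.06 ± 0.0128 at 20 °C and 0.525 ± 0.109 at 4 °C (SD, n = 3). The pairs at 20 °C agreed more closely than the arrays of a pair did, since arrays 3 and 4 differed by a ratio of 1.18.

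The log2 change of SBPASE was -1.03 ± 0.18 (SE), a fold of 2.04 with a 95% confidence interval of 1.50 to 2.76 (adjusted p = 0.00481, limma over pair means). The 3 same-numbered pairs gave log2 differences of -0.70, -1.19 and -1.18. Whether shared numbers pair the arrays of the 2 groups is not known, and same-numbered pairs were not consistently more alike than others. A call in this direction was common on the array: 49.6% of the 3378 features were called lower and 6.87% higher. Nor was the absence of overlap unusual, since 55.8% of features had all pair means at 4 °C below all those at 20 °C, and 48.9% had all 6 arrays below. In an exact permutation test, two-sided, the pair means of SBPASE gave p = 0.1, the smallest that 3 against 3 can give.

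**Figure D1:**
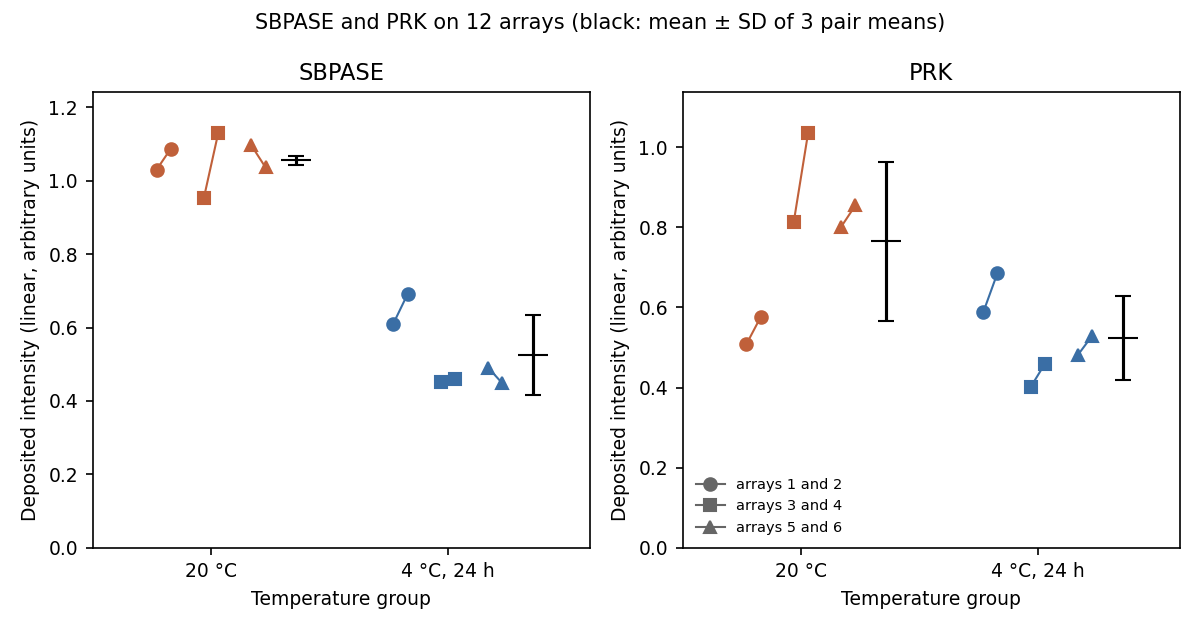
Deposited intensity (linear, arbitrary units) of SBPASE and PRK on each of the 12 arrays, by temperature group; lines join arrays 1 and 2, 3 and 4, and 5 and 6, and black bars give the mean ± SD of 3 pair means. The 6 arrays of SBPASE at 4 °C, up to 0.691, lie below all 6 at 20 °C, while for PRK arrays 1 and 2 at 20 °C lie among the arrays at 4 °C.

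PRK intensities at 20 °C ran from 0.508 through a median of 0.808 to 1.03. At 4 °C they ran from 0.401 through 0.505 to 0.686. The groups overlapped because of arrays 1 and 2, which were the lowest at 20 °C and the highest at 4 °C. The pair means were 0.542, 0.924 and 0.828 at 20 °C, and 0.637, 0.430 and 0.505 at 4 °C. The mean was 0.765 ± 0.199 at 20 °C and 0.524 ± 0.105 at 4 °C (SD, n = 3).

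The log2 change of PRK was -0.53 ± 0.26 (SE), with a 95% confidence interval of -1.18 to 0.12 (adjusted p = 0.136, limma over pair means). The interval holds both no change and a fall larger than the estimate for SBPASE. Same-numbered pairs differed by 0.23, -1.10 and -0.71 on the log2 scale, with only arrays 1 and 2 above 0. Here too it is not known whether shared numbers pair the arrays. Without arrays 1 and 2 of both groups the log2 change was -0.91 (95% confidence interval -1.43 to -0.38, adjusted p = 0.0265, limma over 2 pairs a group), where 43.4% of features were called lower. Leaving out arrays 1 and 2 at 20 °C alone gave -0.76 (adjusted p = 0.0446, limma), where 44.1% of features were called lower. PRK was lowest on arrays 1 and 2 at 20 °C and highest on them in the cold. Their omission from both groups was chosen after the data were seen. Either omission had to enlarge the estimated fall, so neither p can decide whether PRK fell. With 12 single arrays in place of pairs PRK passed as lower (adjusted p = 0.0236, limma), against 59.9% of all features. That p is too small if the arrays of a pair share their RNA, and with the pair as a random block the adjusted p was 0.0748.

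PRK varied more between pairs than SBPASE. Its SD over pair means, pooled over the groups, was 0.35 on the log2 scale, larger than in 156 of the 200 features nearest to it in brightness, whose median was 0.21. SBPASE had 0.20, close to the median of 0.21 among its own 200 nearest features. For SBPASE this spread came almost wholly from the cold group, with SDs of 0.02 at 20 °C and 0.28 at 4 °C. For PRK the SDs were 0.40 and 0.28. At 20 °C the first pair of PRK lay 0.69 below the mean of the other pairs on the log2 scale, and 26 of its 200 nearest features lay further below. Of those 200 features, 68 were, like PRK, lower in the first pair than in the others at 20 °C and higher in it at 4 °C.

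The change on this array moved with brightness, so each gene was set against the 200 features nearest in mean log2 intensity, as a description without a test. For SBPASE, whose geometric mean intensity was 0.739, these features spanned 0.674 to 0.811. Their median log2 change was -0.54, with quartiles of -1.01 and 0.02. SBPASE lay 0.48 below that median, and 49 of the 200 had a more negative change. With neighbours chosen by brightness at 20 °C alone, it lay only 0.20 below. Of the 200, 94 were called lower and 14 higher.

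For PRK, with a geometric mean of 0.619, the 200 nearest features spanned 0.571 to 0.671. Their median log2 change was -0.69, with quartiles of -1.20 and -0.07. PRK lay 0.16 above the median, with 107 features more negative and 93 less negative. With neighbours chosen by brightness at 20 °C alone it lay 0.44 above their median, and with 400 neighbours 0.083 above. Without arrays 1 and 2 of both groups it lay 0.19 below the median of its neighbours. Of its 200 neighbours, 98 were called lower and 14 higher.

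**Figure D2:**
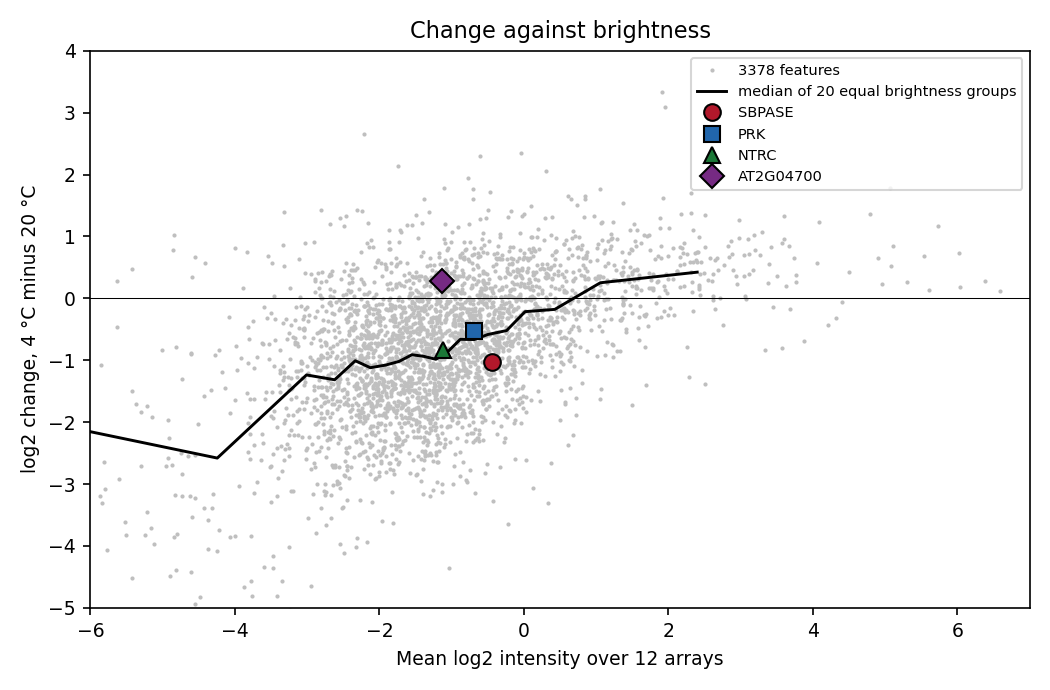
The log2 change (4 °C minus 20 °C, pair means as deposited) of 3378 features against their mean log2 intensity over 12 arrays; the black line joins medians of 20 equal brightness groups and 200 features lie outside the axes. SBPASE, at -1.03, lies below the line and PRK, at -0.53, close to it, with NTRC at -0.84 and AT2G04700 at 0.28.

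The single-name genes next to each member in brightness were compared one by one. Around SBPASE, AT2G41950, AT3G16310 and AT1G11470 fell, with log2 changes of -1.47, -0.81 and -0.67, and AT5G11650 had -0.44 (adjusted p = 0.165, limma over pair means). Around PRK, AT4G13220 fell by 0.53 and PPDK, pyruvate orthophosphate dikinase, fell by 0.51. AT1G44920 had a log2 change of -0.58 and did not pass (adjusted p = 0.155, limma over pair means). AT2G35390 rose, by 0.47 on the log2 scale (adjusted p = 0.0479, limma over pair means). It no longer passed when any pair other than arrays 3 and 4 at 20 °C was left out, or without arrays 1 and 2 of both groups (adjusted p of 0.0678 to 0.168, limma over pair means). Of these 8 genes, only AT2G41950 and AT2G35390 kept the sign of their change under median centring, quantile normalization and cyclic loess, and both passed under all 3. AT3G16310, AT1G11470, AT4G13220 and PPDK passed as lower under none of the 3. AT4G13220 passed as higher after median centring, at 0.38 (adjusted p = 0.0442, limma over pair means). Without arrays 1 and 2 of both groups, AT4G13220 and PPDK no longer passed, at -0.61 and -0.50 (adjusted p of 0.0502 and 0.0868, limma). AT4G13220 also missed the threshold without arrays 5 and 6 at 20 °C (adjusted p = 0.0532, limma), and PPDK without arrays 1 and 2 at 20 °C (adjusted p = 0.0502, limma). PPDK had nearly the estimate of PRK, with pair means of SD 0.0568 at 20 °C against 0.199 for PRK.

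A different scaling of the arrays changed the results for both genes. After centring each array on its median, SBPASE had a log2 change of -0.11 (adjusted p = 0.581, limma over pair means) and no longer passed. The median log2 change over all features counted was then 0.17, so SBPASE still lay below the median feature. It passed as lower after quantile normalization, at -0.42 (95% confidence interval -0.71 to -0.14, adjusted p = 0.0350, limma over pair means). It also passed after cyclic loess, at -0.46 (adjusted p = 0.0466, limma over pair means). Under those scalings 20.5% and 20.8% of features were called lower, and 18.9% after median centring. The size of the fall of SBPASE is therefore tied to the scaling, from a fold of 2.04 as deposited to a value that could not be told from no change.

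The estimate for PRK was above 0 under each of the 3 other scalings. It stood at 0.39 after median centring, 0.18 after quantile normalization and 0.16 after cyclic loess, on the log2 scale. None of these passed, with adjusted p-values of 0.229, 0.620 and 0.631 (limma over pair means). The median log2 change over all features counted was 0.17, 0.047 and -0.00043 in the same order. No direction can be given for PRK across the scalings.

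**Figure D3:**
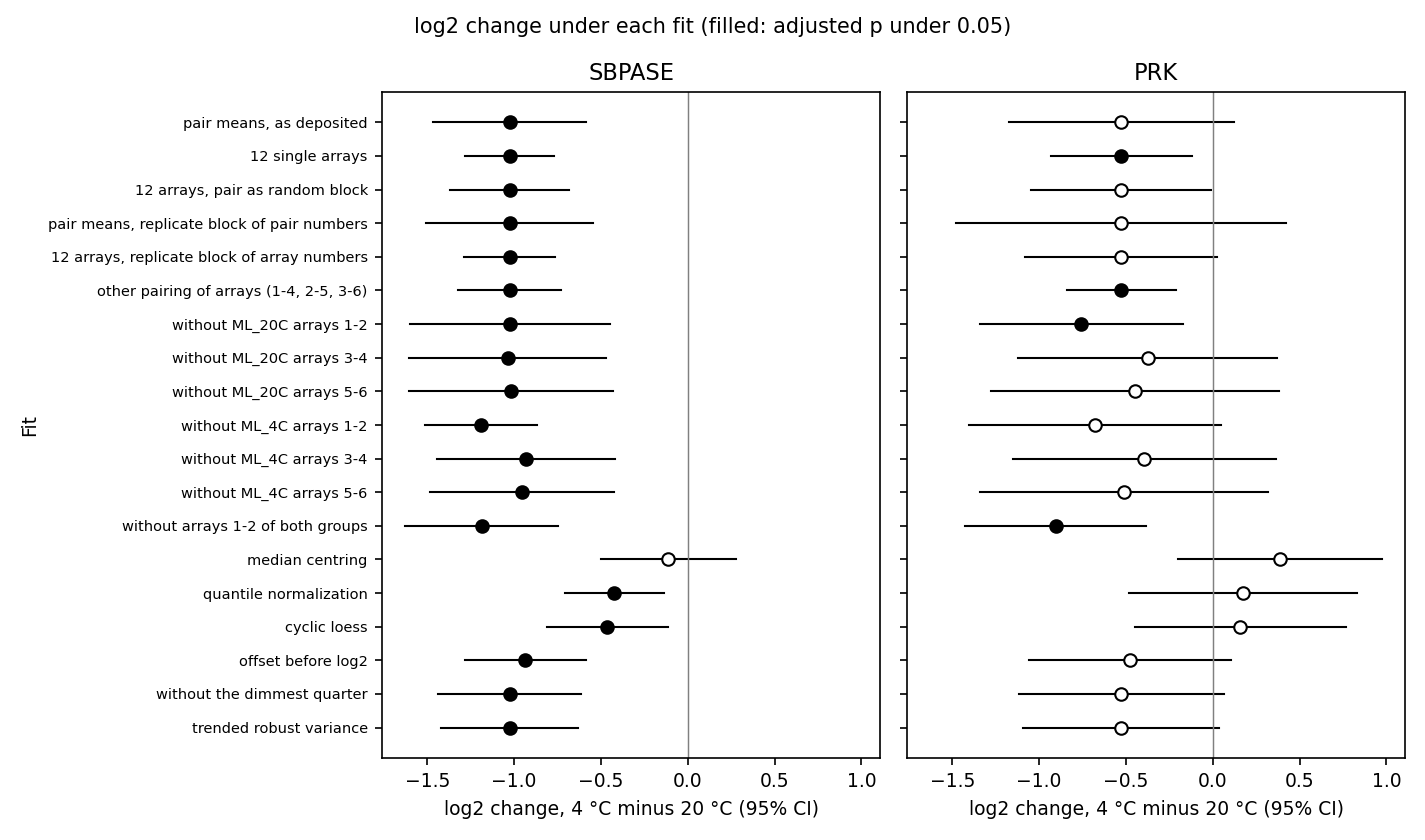
The log2 change (4 °C minus 20 °C) of SBPASE and PRK with its 95% confidence interval under each fit, filled where the adjusted p is under 0.05. SBPASE is below 0 in every fit shown and open only after median centring, while PRK is above 0 after median centring, quantile normalization and cyclic loess.

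The position of a probe among the 3438 features of its own array depends on no factor common to that array. SBPASE stood at a percentile of 77.1 ± 0.752 at 20 °C and 67.9 ± 4.00 at 4 °C (SD, n = 3 pair means). The arrays just overlapped, since the lowest at 20 °C was at 73.4 and the highest at 4 °C at 74.0. PRK stood at 63.2 ± 11.2 and 67.8 ± 4.77, with arrays 1 and 2 at 20 °C at 48.0 and 52.8 and the other 4 between 66.2 and 75.8. The PRK groups overlapped.

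Whether the 2 genes changed by different amounts was tested on the ratio of SBPASE to PRK within each array. The ratio of 2 probes is not a ratio of transcripts, so only its change is used. It was 1.09 at the lowest, 1.29 at the median and 2.03 at the highest over the arrays at 20 °C. At 4 °C it was 0.847, 1.01 and 1.12. Arrays 1 and 2 at 20 °C, at 2.03 and 1.89, were far above the rest, and array 3 at 4 °C, at 1.12, reached above array 4 at 20 °C.

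The mean log2 ratio was 0.50 ± 0.41 at 20 °C and 0.0044 ± 0.098 at 4 °C (SD, n = 3 pair means). The change was -0.50, with p = 0.1 in the exact permutation test over pair means, two-sided, again the smallest 3 against 3 can give. Over single arrays the exact permutation p was 0.00433, which is too small if the arrays of a pair share their RNA. Without arrays 1 and 2 at 20 °C the change was -0.27, and without arrays 1 and 2 of both groups it was -0.28 (exact permutation p = 0.333, the smallest that 2 against 2 can give). A difference between the changes of SBPASE and PRK was thus not established at this number of samples.

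**Figure D4:**
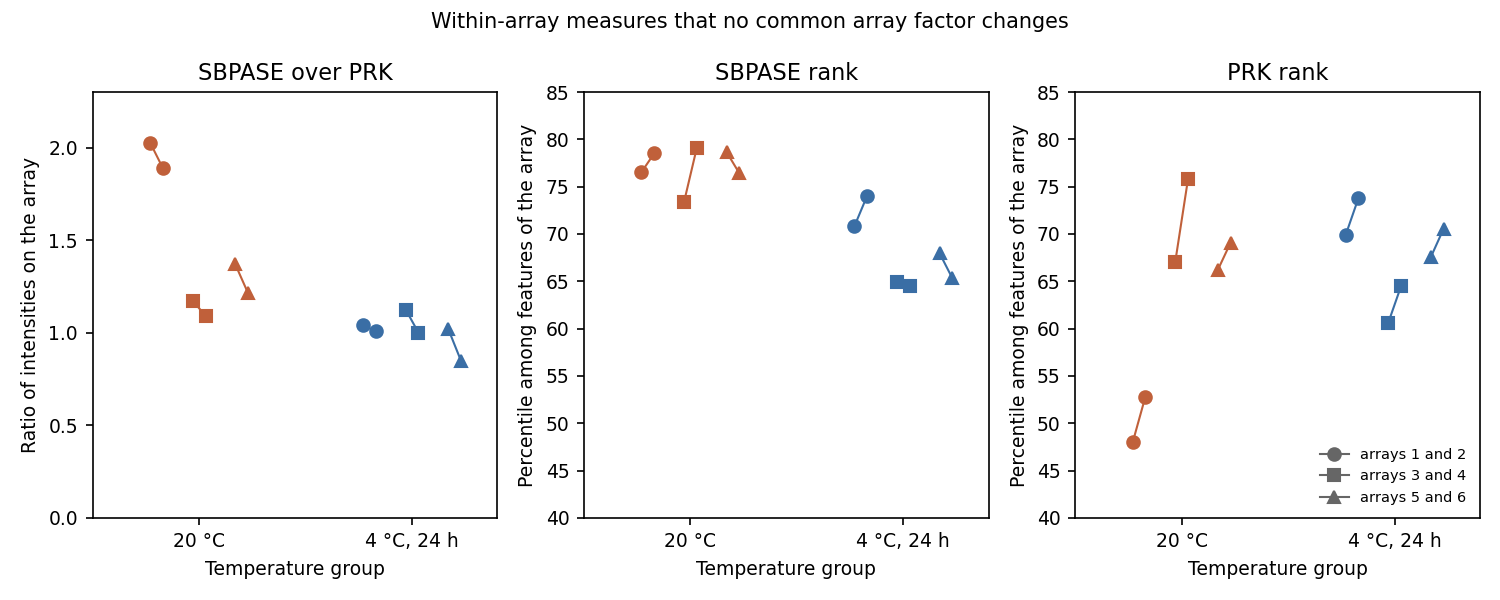
Left, the ratio of SBPASE to PRK intensity on each array; middle and right, the percentile of each gene among the 3438 features of the array (axis from 40 to 85); lines join the arrays of a pair. The ratio is highest on arrays 1 and 2 at 20 °C, at 2.03 and 1.89, and the percentile of SBPASE is lower on average at 4 °C, at 67.9 against 77.1.

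Of the 18 genes listed for the ferredoxin and thioredoxin system, which feeds the activation of both enzymes, 2 had a single-name probe. Of these, 1 was called lower, 0 higher and 1 was not called, beside 49.6% of features called lower. The median log2 change of these 2 genes was -0.28, against -0.74 over all features. Another 3 genes of the list were annotated only on a probe with several names and were not used. Of 13 photorespiration genes, 12 of starch, sucrose and triose phosphate export and 7 of the pentose phosphate pathway, none had a single-name probe.

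NTRC intensities ran from 0.508 through a median of 0.600 to 0.788 at 20 °C and from 0.235 through 0.320 to 0.506 at 4 °C. The groups did not overlap, beside 48.9% of features with all 6 arrays at 4 °C below those at 20 °C. The lowest array at 20 °C and the highest at 4 °C, again array 2, nearly met. The mean was 0.620 ± 0.0741 at 20 °C and 0.355 ± 0.110 at 4 °C (SD, n = 3). NTRC fell by 0.84 ± 0.25 (SE) on the log2 scale, a fold of 1.79 (adjusted p = 0.0320, limma over pair means). The call was lost when any pair other than arrays 1 and 2 at 4 °C was left out, with log2 changes of -0.89 to -0.65. Its change was 0.07, 0.02 and 0.03 after median centring, quantile normalization and cyclic loess, where it did not pass and the sign turned (adjusted p of 0.802, 0.968 and 0.938, limma over pair means). Its percentile was 54.4 ± 6.04 at 20 °C and 54.9 ± 7.65 at 4 °C (SD, n = 3 pair means).

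AT2G04700, entered on the same list by its locus and without a name in the annotation used, ran from 0.275 through 0.468 to 0.538 at 20 °C and from 0.440 through 0.464 to 0.632 at 4 °C. As for PRK, arrays 1 and 2 were the lowest at 20 °C and the highest at 4 °C. The first pair lay 0.78 below the other pairs at 20 °C and 0.46 above them at 4 °C on the log2 scale, where PRK had 0.69 below and 0.45 above. The mean was 0.427 ± 0.123 at 20 °C and 0.509 ± 0.0970 at 4 °C (SD, n = 3). The log2 change of 0.28 ± 0.28 (SE) did not pass (adjusted p = 0.422, limma over pair means), and without arrays 1 and 2 of both groups it was -0.13. Under the other scalings it passed as higher, at 1.19, 1.11 and 1.15 (adjusted p of 0.0109, 0.0209 and 0.0185, limma over pair means), where 30%, 19.5% and 19.1% of features were called higher. Its percentile among all features was 38.6 ± 10.6 at 20 °C and 67.2 ± 3.55 at 4 °C (SD, n = 3 pair means), and the arrays of the groups did not overlap on that scale. The share of all features without overlap on that scale was not counted.

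**Figure D5:**
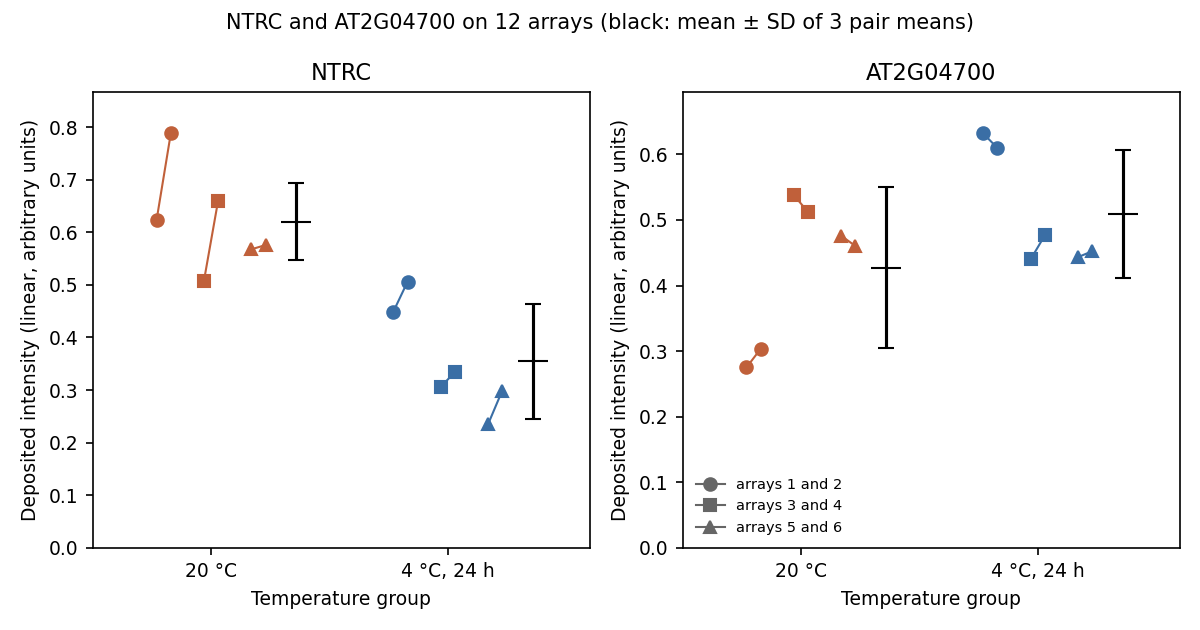
Deposited intensity (linear, arbitrary units) of NTRC and AT2G04700 on each array, by temperature group; lines join the arrays of a pair and black bars give the mean ± SD of 3 pair means. NTRC lies at 0.506 or less on all arrays at 4 °C and above that at 20 °C, while arrays 1 and 2 of AT2G04700 are the lowest at 20 °C and the highest at 4 °C.

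The genes with the most similar profiles were found by the root mean square difference of log2 values over the 6 pair means, after the mean of each gene was removed, among 612 other single-name genes above 0 on all arrays. For SBPASE these were AT2G19280, AT2G30320, AT4G12740, AT4G08630 and AT2G47360, with differences of 0.079 to 0.096. All 5 fell, by 0.94 to 1.19 on the log2 scale, which follows from their choice for a profile like that of SBPASE. None of the 5 passed after median centring (adjusted p of 0.242 to 0.903, limma over pair means). AT4G08630 and AT4G12740 passed under none of the 3 other scalings, and the sign of AT4G12740 turned under quantile normalization and cyclic loess. NTRC was in place 32 for SBPASE, at 0.18, and PRK in place 172, at 0.35. For PRK the most similar were AT2G38500, AT3G14890, AT4G20820, AT2G46050 and AT2G36560, with differences of 0.13 to 0.20. SBPASE was in place 112 for PRK, and AT2G04700 in place 191, at 0.41.

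The 5 genes most similar to PRK were chosen on the same pair means, so that the course of the first pair, below the others at 20 °C and above them at 4 °C, is part of that choice. In AT4G20820 it lay 0.70 below and 0.82 above on the log2 scale, and in AT2G36560 it lay 0.21 below and 0.33 above. Of these 5 genes, AT3G14890 and AT2G36560 fell, by 0.60 and 0.70 on the log2 scale, and after median centring the signs of both turned. AT3G14890 passed as higher after quantile normalization and cyclic loess, at 0.48 and 0.49 (adjusted p of 0.0235 and 0.0449, limma over pair means). It no longer passed with the pair as a random block or without arrays 3 and 4 or 5 and 6 of either group (adjusted p of 0.0527 to 0.0780, limma). AT2G36560 passed under none of the 3 other scalings, nor without arrays 3 and 4 at 20 °C, 3 and 4 at 4 °C or 5 and 6 at 4 °C (adjusted p of 0.0584 to 0.0681 for these omissions, limma over pair means). AT2G38500 had -0.76 and missed the threshold (adjusted p = 0.0501, limma over pair means). AT4G20820 and AT2G46050 had -0.44 and -0.48 (adjusted p of 0.292 and 0.286, limma over pair means). Without arrays 1 and 2 of both groups these 3 genes passed as lower, at -1.13, -0.95 and -0.97, where 43.4% of features were called lower. The larger falls follow from the choice of these genes, since the omitted pair was low at 20 °C and high at 4 °C. Under the 3 other scalings their estimates, with all pairs kept, were above 0. The first pair of SBPASE lay 0.49 above its others at 4 °C, where PRK had 0.45, but at 20 °C it lay only 0.01 above them, where PRK lay 0.69 below.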

How the data were processed

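The deposited table gives 1 intensity per probe and array, already scaled by the authors. How the arrays were scanned, corrected for background and scaled was not given in the sources used here. Probe names came from GEO's annotation of the platform, brought up to date with TAIR10.1 symbols by gene identifier; 690 of 692 single-name probes matched, 870 had several names and 1877 had none. The 2 probes of 1 gene were averaged. Array means lay within 3.35% of their overall mean, so intensities were used as deposited, though array medians differed between the groups. In values already scaled, agreement of the means cannot show that the groups are comparable. Before log2, zeros took the smallest positive intensity of their array, and 60 features at 0 on all arrays were left out of counts.

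Pair means of log2 values entered limma 3.58.1 (lmFit, eBayes; R 4.3.3), with two-sided tests and Benjamini-Hochberg adjustment over 3438 features at 0.05; means and SDs are of linear pair means. The fit was also run on simulated data with independent noise and a minority of features changed, in both directions. Such data lack the broad shift with brightness seen here, so this run does not measure the error of the calls. Exact permutation tests used SciPy 1.17.1. Alternatives were single arrays, pairs as random or fixed blocks, another pairing, each pair left out, 3 scalings, an offset of 0.0680, leaving out the 860 dimmest features, a trended robust variance and a minimum fold of 2. Genes named are both members, listed genes with a single-name probe, the 5 most similar profiles and the 2 neighbours in brightness on either side. Members and lists were chosen with earlier results of these data known.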

Additional observations from a re-analysis of the deposited data

Results flagged for a closer look

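The 26 named genes and the SBPASE to PRK ratio gave 54 groups of 6 arrays. Of these, 2 held an array set apart from the other 5 by more than 0.625 of the group's range. About 1 in 20 groups of 6 independent normal values pass that limit. These arrays were alike in pairs, so that rate need not hold here. In AT2G35390 an array at 4 °C read 0.613, against 0.727 to 0.785 on the others. In AT4G13220 an array at 20 °C read 0.860, against 0.706 to 0.746 on the others. Neither lay in SBPASE, PRK, NTRC or AT2G04700. The rule looks for a single array, so a pair that stands apart, such as arrays 1 and 2 of PRK and AT2G04700, can escape it.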

How the results depend on the processing

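SBPASE kept its direction under every alternative tried and its call under all except median centring, at -0.11 on the log2 scale. For PRK the estimate of -0.53 passed with 12 single arrays and with arrays 1-4, 2-5 and 3-6 paired instead. In each of these fits 2022 of 3378 features were called lower. Both put arrays 1 and 2, 3 and 4, or 5 and 6 into different samples, so their p is too small if such arrays share their RNA. The PRK estimate became 0.39, 0.18 and 0.16 under the scalings, and ran from -0.91 to -0.37 with pairs left out. Between deviations from the group means, same-numbered pairs had correlations of -0.30, -0.0069 and 0.12. The first pair at 20 °C correlated best with the second at 4 °C (0.31). Pairs sharing a number were thus not consistently more alike, though so few pairs cannot decide whether numbers paired the arrays. With the pair number as a replicate block SBPASE had -1.03 (adjusted p = 0.0150, limma) and PRK -0.53 (adjusted p = 0.243, limma), with 207 features higher and 1602 lower. The ratio change of -0.50 passed over single arrays, also with array number as a block (exact permutation p = 0.0312, the smallest that block test can give). Both count the arrays of a pair as separate samples, so p is too small if these share their RNA. Pair means could not pass, and with pair number as a block the exact permutation p was 0.25. A random block was not run for the ratio. With brightness at 20 °C alone, SBPASE minus its neighbours was -0.20 and PRK minus its neighbours 0.44. With brightness over all 12 arrays, PRK minus its neighbours was 0.16 and ran from -0.19 to 0.27 with pairs left out.

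Features called higher numbered 232, against 420 with single arrays, 353 with a random block, 424 with array number as a block, 441 in the other pairing, 1015 with median centring, 658 with quantile normalization, 646 with cyclic loess, 72 with a minimum fold, and 130 to 211 with pairs left out. Features called lower numbered 1675, against 638, 692 and 703 under the 3 scalings. Omitting arrays 1 and 2 of both groups was chosen after seeing the data; AT2G04700 ran from -0.13 to 0.45 with pairs left out.

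Other signs turned on rescaling. After median centring AT1G11470 stood at 0.25, AT1G44920 at 0.34, AT2G36560 at 0.21, AT2G38500 at 0.16, AT2G46050 at 0.44, AT3G14890 at 0.31, AT3G16310 at 0.10, AT4G13220 at 0.38, AT4G20820 at 0.47, AT5G11650 at 0.48, LHB1B2 at 0.084, NTRC at 0.074, PPDK at 0.40 and PSBY at 0.74. After quantile normalization AT1G44920 stood at 0.15, AT2G38500 at 0.33, AT2G46050 at 0.15, AT3G14890 at 0.48, AT4G12740 at 0.038, AT4G13220 at 0.18, AT4G20820 at 0.65, AT5G11650 at 0.19, NTRC at 0.017, PPDK at 0.21 and PSBY at 0.023. After cyclic loess AT1G44920 stood at 0.11, AT2G38500 at 0.35, AT2G46050 at 0.12, AT3G14890 at 0.49, AT4G12740 at 0.072, AT4G13220 at 0.15, AT4G20820 at 0.67, AT5G11650 at 0.13, NTRC at 0.030 and PPDK at 0.17. The cause was not tested.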
